A study of Mus musculus with 12 samples.

Results

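The libraries described here compare the liver after vertical sleeve gastrectomy (VSG) with the liver after sham surgery, whichever way the sham-operated mice were fed afterwards. All 12 of 12 libraries of the series were used, 4 after VSG against 8 after sham surgery, and 13054 of the 46078 genes in the table had enough reads to be tested. Groups were taken from the animal number in each library's title. All animals were C57BL/6 mice with diet-induced obesity, aged 21 weeks, and each library holds poly(A) RNA from the liver of 1 mouse. The Sham-Ad lib mice (3F, 4F, 6F and 10F) had a sham operation and then ate without restriction. The Sham-WM mice (2F, 9F, 15F and 16F), named calorie restricted in the titles, had a sham operation and then had their food limited so that their weight followed that of the operated group. The VSG mice (1F, 8F, 11F and 18F) had the sleeve gastrectomy, which removes most of the stomach along its greater curve. The study used male mice of the substrain C57BL/6J fed a high-fat diet and took livers after a short fast. Values are listed in this order of animals throughout, as CPM (a gene's counts relative to the library total) scaled by trimmed means of M values, and changes are log2 fold changes of VSG against the mean of both sham groups ± SE unless another comparison is named.

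Most of the liver's mass is hepatocytes, which make fatty acids, cholesterol and plasma proteins, while Kupffer cells, the resident macrophages of the sinusoids, clear bacteria and debris from portal blood. On inflammatory signals such as interleukin 6, hepatocytes raise secretion of acute phase proteins and lower that of albumin. Fatty acid and cholesterol synthesis are governed by the transcription factors SREBP-1c and SREBP-2, which respond to insulin and to membrane sterol, so that feeding alone can move both, and feeding time also sets the phase of the liver clock.

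Library totals ran from 15122520 counts in 11F to 19384076 in 9F. A pair of libraries stood apart from their groups. Principal components were taken on log2 CPM of the genes of highest variance only. The first component held 63.2% of the variance of these genes. On it Sham-Ad lib 4F lay at 13.83, beyond VSG 18F at 10.13, while 10F lay at -2.865. The remaining 6 shams lay between -28.53 and -17.49, and the other VSG livers between 27 and 47.03. Thus 4F lay closer to the VSG livers than the other shams did, and 18F closest to the shams. Counts are therefore also given without 4F and 18F, an alternative chosen after seeing the data. Each group's index numbers are consecutive, and any batch tied to that order and the treatment cannot be told apart. A further label field ties titles to libraries of other animals, and grouping by it was run only as an alternative.

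Sleeve gastrectomy was set against the mean of both sham groups, each group weighted equally, to ask what the operation changed. Of the 13054 genes tested, 1648 rose (12.6% of genes tested) and 1016 fell (7.78%) after VSG. Among them 732 rose and 154 fell by at least 2-fold. Genes of neutrophils, Kupffer cells, B and plasma cells, the acute phase response and ribosomal proteins were among those that rose, and genes of fatty acid and cholesterol synthesis among those that fell. The median log2 fold change over all tested genes was 0.03 (-0.01 without 11F), and the typical coefficient of variation between mice of 1 group was 0.217. Against the sham groups taken singly the counts were unequal, with 98 genes called against Sham-Ad lib (0.751%), 61 higher and 37 lower, and 3509 against Sham-WM (26.9%), 1962 higher and 1547 lower, where 3149 and 5268 passed unadjusted. By DESeq2 1202 and 4089 were called, and by limma-voom 2 and 3403. The count against Sham-Ad lib turned on single libraries, being 903 without 4F, 1089 without 18F, 227 without 8F, 3 without 15F, 1 each without 3F, 10F and 16F, and 0 by edgeR without 6F, 2F, 9F or 1F (2230, 3060, 3060 and 2126 unadjusted), while the count against Sham-WM was 2234 without 15F and 2196 without 16F. Unequal counts do not test whether the changes differ. Of the 2664 called, 1934 also passed at an unadjusted p under 0.05 against each sham group, which being called on the average favours. Between the sham groups themselves 912 genes differed (6.99%), and 375 of the 2664 (14.1%) were among these. All 4 VSG values lay above all 8 sham values for 379 genes (2.9%) and below them for 288 (2.21%), of which 364 and 264 were called. Without 1F, 1101 genes were called, 750 higher and 351 lower, and without 3F 650 were lower. The study's methods describe batch variation among the surgical mice and its removal with RUVSeq, but which library belonged to which batch is not given in the sources used here. With 2 factors of unwanted variation taken out, 42 genes were called by RUVs, 1663 passing unadjusted, and 4798 by RUVr. These factors were estimated here from all tested genes, those that changed after VSG included. RUVs factors can therefore take up part of the treatment difference. RUVr factors, fitted to residuals, take out spread within groups. Neither count isolates batch, and the part of batch in the changes described here was not tested. Without 4F and 18F together, 3252 genes were called and 2225 genes had VSG values outside all sham values, while leaving out 4F, 10F, 8F or 18F alone gave 1327, 1068, 1241 and 1618 such genes. The count between the sham groups was 543, 554, 506, 445 and 424 without 3F, 6F, 10F, 15F and 16F.

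A stricter rule asked that VSG differ from each sham group by the larger of both p-values, adjusted over all genes. It called 28 genes, 18 higher (0.138% of genes tested) and 10 lower (0.0766%), with a smallest adjusted p of 0.0473 by edgeR's quasi-likelihood test with Benjamini-Hochberg adjustment. Those higher were the neutrophil granule and calprotectin genes Ngp, Ltf, Camp, S100a8 and S100a9, the Kupffer cell receptors Clec4f, Vsig4 and Folr2, the antibody chains Igkc and Jchain, the leukocyte genes Cd52, Cd300lb and Pilrb1, and Ppbp, Rhog, Tifa, Pmaip1 and Tmem26. Those lower included the lipogenic enzymes Acly and Acacb, the sterol genes Hsd17b7 and Sc5d, and Cyb5b, Polr3g, Utp14b, Chrna4 and Slc17a8. In all 28 the 4 VSG values lay outside the 8 sham values, which the rule favours. Acacb, Acly, Chrna4 and Tifa also differed between the sham groups, and the other 24 were not called there. The number called sits at the edge of the threshold, since 2169 genes (1370 higher and 799 lower) passed it unadjusted. It rested on single libraries. By edgeR 547 genes were called without 4F, 524 without 18F, 8 without 8F, 3 without 15F, 1 each without 3F, 10F and 16F, and 0 without 6F, 2F, 9F, 1F or 11F, where 1616, 2092, 1969, 1429 and 1867 passed unadjusted. With all libraries DESeq2 called 662, limma-voom 2 (0 higher and 2 lower) and edgeR with DESeq2 size factors 5 (1 higher and 4 lower), and without 4F and 18F together 843 genes were called, all 28 among them. Tifa and Cd52 overlap Ap1ar and Crybg2 on the opposite strand and Utp14b is nested in Acsl3 with the same orientation, and since the strand setting of the counting is not stated these 3 are uncertain.

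Neutrophil genes had the highest median change of the cell marker lists. All 12 tested markers of 14 rose, with a median log2 fold change of 6.40, against 12.6% of all genes rising and a median of 0.03. S100a9, a subunit of calprotectin and the most abundant of the list, read 0.223, 5.04, 0.162 and 1 CPM in Sham-Ad lib, 1.07, 0.41, 0.459 and 0.507 CPM in Sham-WM and 326, 132, 53.3 and 8.76 CPM in VSG. Every VSG liver lay above every sham, 4F was the highest sham, and 1F and 18F differed widely within the VSG group. Its log2 fold change was 7.01 ± 0.83 (SE, edgeR quasi-likelihood test, Benjamini-Hochberg adjusted p = 0.00093), with all 4 VSG livers higher. Ngp, a granule protein of maturing neutrophils, read 0, 1.88, 0.0541 and 0.188 CPM in Sham-Ad lib, 0.153, 0, 0 and 0.0563 CPM in Sham-WM and 226, 106.4, 16.3 and 7.56 CPM in VSG and changed by 8.94 ± 1.00. Ltf, lactoferrin of the secondary granules, read 136, 70.1, 9.64 and 4.32 CPM in VSG and, over the 8 shams, from 0 through a median of 0 to 1.29 CPM and changed by 8.69 ± 1.02. Both separated VSG from sham livers without overlap, 18F being the lowest VSG liver. Camp, the cathelicidin precursor, had 936, 408, 121 and 38 counts in the VSG livers and 0 in all 4 Sham-WM livers, so it was at least 140.2-fold higher than in Sham-WM, taking a floor of 3 counts per library. With Camp at that bound, which is against Sham-WM alone, the list's median against both shams was again 6.40. This swap could not move the median, since Camp's fitted log2 change of 9.67 and its bound of 7.13 both lay above it. The primary granule genes Mpo and Elane, transcribed in precursors rather than in circulating neutrophils, rose as well, by 8.14 ± 1.11 and 6.07 ± 0.81. The summed level of the 14 markers was 3.51, 29.4, 2.54 and 4.89 CPM in Sham-Ad lib, 5.81, 4.04, 5.91 and 4.67 CPM in Sham-WM and 1204, 537, 156 and 44.6 CPM in VSG. Ly6g and Mmp8 had too few reads to be tested. Since the shams were near 0, most of the 12 passed the filter on low counts through the VSG livers alone, and of the 2 with at least 10 counts in every library both rose, at a median of 2.55. After 2 RUVs factors were taken out edgeR called 6 of the 12, at a median of 2.49. In bulk liver, more cells of a type and more RNA per cell cannot be told apart.

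Kupffer cell genes rose together in all 14 of 14 markers, against 12.6% of all genes. Their median log2 fold change was 1.79, with 1.57 against Sham-Ad lib and 1.95 against Sham-WM. None differed between the sham groups, where 6.99% of all genes did. Clec4f, a lectin found on Kupffer cells, read 42.8, 93.7, 60.1 and 47.9 CPM in Sham-Ad lib, 55.4, 55, 64.7 and 38 CPM in Sham-WM and 242, 148, 148 and 124 CPM in VSG. All 4 VSG livers lay above all shams, of which 4F was highest. Its change was 1.54 ± 0.22 (SE, edgeR quasi-likelihood test, Benjamini-Hochberg adjusted p = 0.00151). Vsig4, a complement receptor that binds bacteria, read 114.7, 55.2, 62 and 48.2 CPM in VSG and, over the 8 shams, from 12.6 through a median of 19 to 34 CPM and changed by 1.80 ± 0.25. Folr2, a folate receptor of resident macrophages, read 35.4, 14.9, 24 and 17.2 CPM in VSG and, over the 8 shams, from 3.95 through a median of 5.83 to 9.5 CPM and changed by 1.90 ± 0.24. Neither overlapped between VSG and sham livers. Marco, a scavenger receptor, rose by 3.16 ± 0.60, Cd5l, a secreted macrophage protein and the list's most abundant gene, by 1.96 ± 0.33, and Timd4, which binds phosphatidylserine on dying cells, by 1.78 ± 0.35. The summed level was 241, 710.4, 314 and 259.8 CPM in Sham-Ad lib, 329, 287, 349 and 213 CPM in Sham-WM and 2003, 1033, 977 and 761 CPM in VSG, lowest of the VSG group in 18F and highest of the shams in 4F. All 14 were called whichever library was left out, while with 2 RUVs factors edgeR called 0 of 14 and 13 passed unadjusted, with a median of 0.86.

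**Figure D1:**
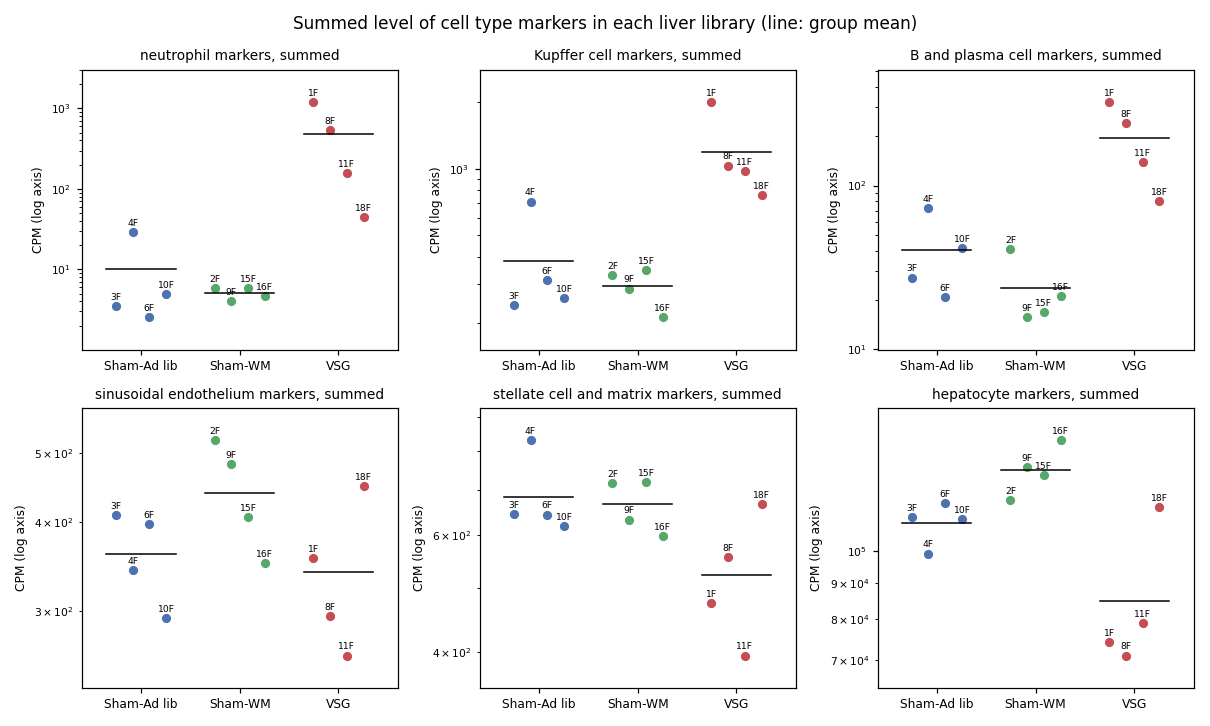
Summed CPM of each marker list in every library on a log axis, points labelled by animal and lines at the group means. Neutrophil and Kupffer cell sums of all VSG livers lie above those of all shams, with 4F the highest sham and 18F the lowest VSG liver.

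Markers of other leukocytes rose in part. Of 13 markers of recruited and lipid-associated macrophages 7 rose (53.8% against 12.6% of all genes) and none fell (median 1.37), among them Chil3 and Ly6c2, which mark monocytes, by 6.24 ± 0.85 and 4.29 ± 0.64. Of the 9 with at least 10 counts in every library 5 rose (median 1.09). Lyz2, lysozyme and their most abundant gene, rose by 2.68 ± 0.43, whereas Trem2, a receptor of lipid-associated macrophages, had 0.73 ± 0.42 and an edgeR adjusted p of 0.218 (Benjamini-Hochberg). Their summed level was 93.9, 273, 96.4 and 109.2 CPM in Sham-Ad lib, 142, 101, 107.95 and 91.9 CPM in Sham-WM and 794, 371, 375 and 249 CPM in VSG. Of 14 tested B and plasma cell genes of 16, 12 rose (85.7% against that 12.6%, median 2.38). Only 5 of the 14 had at least 10 counts in every library, of which 4 rose. The others may have passed the filter on low counts through the VSG livers, which was not tested. Igkc, the kappa light chain constant region, read 6.36, 14.1, 3.08 and 7.47 CPM in Sham-Ad lib, 8.71, 2.87, 2.86 and 5.23 CPM in Sham-WM and 103.8, 57.7, 42.4 and 20.8 CPM in VSG. Each VSG liver lay above each sham, 18F lowest. It changed by 3.18 ± 0.42 (SE, edgeR quasi-likelihood test, Benjamini-Hochberg adjusted p = 0.00133). Jchain, which joins IgA and IgM multimers, rose by 2.88 ± 0.41 and Ighm by 2.02 ± 0.38. The summed level of the list was 27.4, 72.8, 20.8 and 41.3 CPM in Sham-Ad lib, 40.9, 15.7, 16.9 and 21.1 CPM in Sham-WM and 324, 241, 139 and 80.6 CPM in VSG. Of 8 tested T and NK cell genes of 15, 5 rose (62.5%, median 1.12), but 1 was called without 1F, 2 without 8F and 3 without 15F, and 3 with the 8 shams as 1 group. Only 2 had at least 10 counts in every library, and 1 of these rose (median of both 0.56). Their sum, led by Ccl5, was 10.1, 8.74, 4.65 and 11.2 CPM in Sham-Ad lib, 10.7, 7.78, 5.05 and 6.35 CPM in Sham-WM and 20.4, 17.5, 10 and 12.6 CPM in VSG, so 11F overlapped the shams. Cd3g, of the T cell receptor complex, had 1.23 (adjusted p = 0.0812) without 1F and 1.25 (adjusted p = 0.0534) without 8F, by edgeR with Benjamini-Hochberg adjustment. Antibody constant genes resemble one another, so reads may have been split among them. MHC class II genes, which present antigen, rose in 5 of 7 (71.4%, median 1.03), with 1 called without 1F, 2 without 3F, 6F, 10F, 9F, 15F, 16F or 8F or with the 8 shams as 1 group, and 3 without 11F. Taking out 2 RUVs factors, edgeR called 2 of the 13 macrophage genes, and 0 of the B and plasma cell, T and NK cell and MHC class II lists, where 6, 0 and 0 passed unadjusted, at medians of 0.83, 0.58 and 0.06. Without such factors DESeq2 called 12, 4 and 6 genes of these lists higher and limma-voom 11, 4 and 6.

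Of the remaining cell type lists, stellate cell and matrix genes had the most genes called. Sinusoidal endothelium had 1 of 15 genes lower (6.7% against 7.78% of all genes), Eng, and none higher (median -0.18, but -0.31 without 18F), while DESeq2 called 4 lower and limma-voom 3. By edgeR the list had 0 lower without 3F, 6F, 2F, 9F, 15F, 1F, 8F or 11F (4 to 6 unadjusted), 2 lower without 16F, 3 lower without 4F or 10F and 6 lower without 18F, and 1 higher without 11F. The sums were 409, 342, 397 and 294 CPM in Sham-Ad lib, 521, 482, 407 and 349.9 CPM in Sham-WM and 356, 295, 260.1 and 449 CPM in VSG. Stellate cell and matrix genes had 4 of 14 tested lower (28.6% against 7.78% of all genes), Ecm1, Reln, Lrat and Bgn, and 1 higher (median -0.26, but -0.17, -0.41, -0.11 and -0.46 without 4F, 8F, 11F and 18F in turn), or by edgeR 0 higher without 3F, 6F, 10F, 2F, 15F, 16F, 1F, 11F or 18F (1 unadjusted). With 2 RUVs factors none of these was called by edgeR and 4 were lower unadjusted, while without them DESeq2 called 4 lower and limma-voom 4. Reln, a secreted glycoprotein of stellate cells, read 22.6, 36.7, 17.9 and 50.4 CPM in VSG and, over the 8 shams, from 56.8 through a median of 64.8 to 74.1 CPM. It fell in all 4 VSG livers below every sham, with a change of -1.02 ± 0.22 (SE, edgeR quasi-likelihood test, Benjamini-Hochberg adjusted p = 0.00802). The list's most abundant gene was Dcn and its sums were 645, 831, 643 and 617 CPM in Sham-Ad lib, 718, 632, 719 and 597 CPM in Sham-WM and 473, 556, 396 and 667 CPM in VSG, overlapping between groups. Cholangiocyte and mesothelial genes had 0 of 5 and 0 of 3 called by edgeR, DESeq2 and limma-voom, and 0 unadjusted by edgeR, with medians of -0.26 (-0.41, -0.45 and -0.07 without 10F, 1F and 11F in turn, and 0.03 over the 2 genes with at least 10 counts in every library) and -0.90 (-0.08 without 15F). The 7 red blood cell genes had a median of 0.64, but -0.10 without 11F, 0.19 by limma-voom and 0.10 with 2 RUVs factors. Their sums, led by Hbb-bs, were 280.3, 326, 589 and 298 CPM in Sham-Ad lib, 188, 314, 151 and 212 CPM in Sham-WM and 370.3, 142, 732 and 258 CPM in VSG. No exocrine pancreas gene of 7 had enough reads, and Cpa1, Pnlip and Clps were at 0 in every library. Of 6 adipocyte markers 2 were tested, with a median of -0.87, -1.86 against Sham-Ad lib and 0.11 against Sham-WM, and Lep was at 0. Their sum was nearly all Car3, which hepatocytes express too, and was 4173, 2683, 4181 and 3262 CPM in Sham-Ad lib, 5322, 5879.6, 4004 and 4914 CPM in Sham-WM and 1050.0, 1516, 2429.5 and 2923 CPM in VSG, with 1F, 8F and 11F below all shams and 18F above 4F. Car3 fell with -1.10 ± 0.25 (-0.85 against Sham-Ad lib and -1.35 against Sham-WM), while with 2 RUVs factors edgeR called 0 of the 2 and 1 was lower unadjusted. Hepatocyte markers had 1 of 6 lower (16.7%), Cps1 of the urea cycle, with a median of -0.49, and summed to 111563, 99169, 116839 and 110935 CPM in Sham-Ad lib, 117914, 131532, 128126 and 143437 CPM in Sham-WM and 74224, 71142, 79151 and 115377 CPM in VSG, mostly Alb. The sums of 1F, 8F and 11F lay below all shams and that of 18F among them. DESeq2 and limma-voom called 2 of the 6 lower, and edgeR 2 with DESeq2 size factors or without 18F, 3 with 2 RUVr factors, and 0 without 6F, 9F, 15F, 16F or 1F or with the 8 shams as 1 group (2 unadjusted in each) or with 2 RUVs factors (0 unadjusted). By edgeR with Benjamini-Hochberg adjustment, Cps1 lost its call without 6F (-0.61, adjusted p = 0.0645), 9F (-0.64, adjusted p = 0.0549), 15F (-0.66, adjusted p = 0.0534), 16F (-0.63, adjusted p = 0.0605), 1F (-0.49, adjusted p = 0.109) or 11F (-0.53, adjusted p = 0.0904). Albumin itself had -0.57 ± 0.20 (SE, edgeR quasi-likelihood test, Benjamini-Hochberg adjusted p = 0.0567), and -0.79 (adjusted p = 0.0128) without 18F. The part of cell composition in the changes described next was not tested.

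Acute phase genes rose in 25 of 33 tested (75.8% against 12.6% of all genes) and fell in none, with a median log2 fold change of 1.44, 0.94 against Sham-Ad lib and 1.91 against Sham-WM. Saa1, serum amyloid A1, which joins high density lipoprotein during inflammation, read 141, 2127, 798 and 6026 CPM in Sham-Ad lib, 252, 53.6, 33.7 and 24.2 CPM in Sham-WM and 11973, 5208, 11829.5 and 245 CPM in VSG. It was high in 1F, 8F and 11F, but 18F lay among the shams and 4F and 10F were high among the shams, so the groups overlapped. Its change was 4.01 ± 0.93 (SE, edgeR quasi-likelihood test, Benjamini-Hochberg adjusted p = 0.0116). Orm2, an orosomucoid that binds drugs, read 8.09, 167, 23.2 and 449 CPM in Sham-Ad lib, 18.9, 9.98, 17.7 and 27 CPM in Sham-WM and 3131, 2333, 1637 and 72.6 CPM in VSG and changed by 5.04 ± 0.90. Lcn2, which withholds iron from bacteria, read 3527, 1126, 1316 and 99.8 CPM in VSG and, over the 8 shams, from 5.92 through a median of 29.3 to 422 CPM and changed by 4.57 ± 0.86. Mt2, a metallothionein that binds zinc, read 575, 479.8, 517 and 297 CPM in VSG and, over the 8 shams, from 1.22 through a median of 13 to 313 CPM and changed by 4.62 ± 0.52. In these 3 genes, too, sham and VSG values overlapped. Hp, haptoglobin, and Hpx, hemopexin, which clear free haemoglobin and haem, rose by 1.69 ± 0.35 and 1.65 ± 0.38 and were among the most abundant genes that rose. Crp changed by 0.12 ± 0.10, with an edgeR adjusted p of 0.428 (Benjamini-Hochberg), and by 0.0008 (adjusted p = 0.997) without 1F. Saa3, made by macrophages as well as hepatocytes, rose by 4.19 ± 0.85, and by 2.41 (adjusted p = 0.038) without 11F. The fibrinogen chain Fga rose by 0.66 ± 0.22, but lost its call without 3F (0.60, adjusted p = 0.0844), 6F (0.59, adjusted p = 0.0819), 10F (0.68, adjusted p = 0.0573), 2F (0.62, adjusted p = 0.0766), 9F (0.69, adjusted p = 0.0561), 15F (0.67, adjusted p = 0.0721), 16F (0.65, adjusted p = 0.077), 1F (0.56, adjusted p = 0.14) or 8F (0.49, adjusted p = 0.145), by edgeR with Benjamini-Hochberg adjustment. With 2 RUVs factors edgeR called 2 higher, 7 passing unadjusted at a median of 0.12, and Saa1 and Hpx then had negative changes of -0.66 and -0.04. Without 8F 1 gene of the list fell. Orm and Saa genes are close copies, so reads may have been split among them. Summed acute phase levels, led by C3, were 40490.4, 77415, 44684 and 91529 CPM in Sham-Ad lib, 40846, 41672, 38964 and 38578 CPM in Sham-WM and 141737, 119812, 117976 and 52510.0 CPM in VSG. Neutrophil and Kupffer cell sums were high in the same VSG livers and low in 18F, and their part in this result was not tested.

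**Figure D2:**
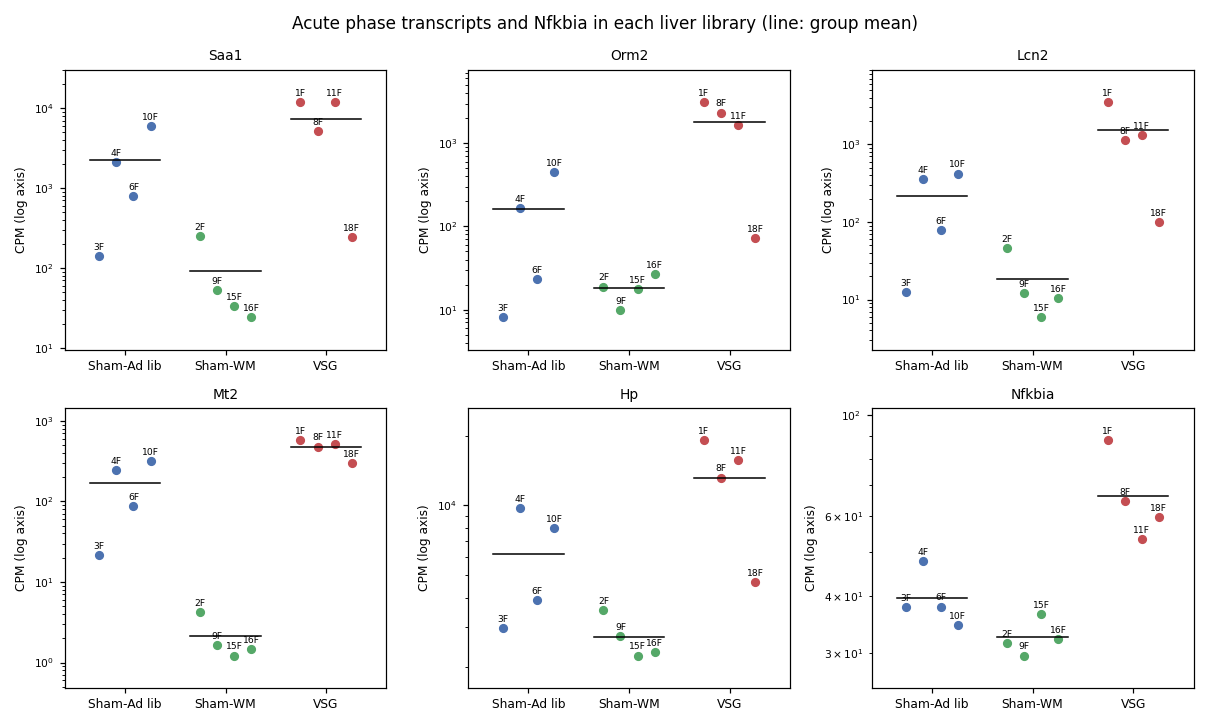
CPM of Saa1, Orm2, Lcn2, Mt2, Hp and Nfkbia in every library on log axes, points labelled by animal and lines at group means. VSG livers 1F, 8F and 11F are high, while 18F and the Sham-Ad lib livers 4F and 10F lie between the groups for several genes.

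Promoters of the acute phase genes are shown because most of these genes rose and because C/EBP and STAT factors are known to act on such genes. Shares for a list count every member with a promoter, whether or not it was called. Motifs were searched on both strands of RefSeq promoters, from 250 bases before to 50 after the start of transcription, of build GRCm38.p6, in which 10114 of the 13054 tested genes matched. TTGCNNAA, a C/EBP motif, was present in 13 of 26 acute phase promoters (50%) and in 10.8% of all 27025 promoters. TTCNNNGAA, a STAT motif, was present in 8 of 26 (30.8%) against 8.47%, and the NF-kB motif GGNNNTTCC in 7 of 26 (26.9%) against 18.4%. Among promoters of all genes that rose, the C/EBP motif was in 12.9%, the STAT motif in 7.05% and the NF-kB motif in 24.9%, so the NF-kB share was near that of any gene that rose. Genes that fell held the C/EBP motif in 9.08%, and neutrophil genes in 6 of 13 (46.2%). Orm2 (chr4:63362199-63362498, plus strand) and Lcn2 (chr2:32387690-32387989, minus strand) are printed with C/EBP matches in capitals. Neither window has a STAT match, and a match describes letters only.
Orm2: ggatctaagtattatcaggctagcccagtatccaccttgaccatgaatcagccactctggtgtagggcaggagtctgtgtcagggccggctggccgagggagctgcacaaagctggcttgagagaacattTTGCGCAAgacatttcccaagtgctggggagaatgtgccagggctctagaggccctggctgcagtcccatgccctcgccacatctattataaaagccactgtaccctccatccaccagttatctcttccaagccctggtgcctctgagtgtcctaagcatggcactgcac
Lcn2: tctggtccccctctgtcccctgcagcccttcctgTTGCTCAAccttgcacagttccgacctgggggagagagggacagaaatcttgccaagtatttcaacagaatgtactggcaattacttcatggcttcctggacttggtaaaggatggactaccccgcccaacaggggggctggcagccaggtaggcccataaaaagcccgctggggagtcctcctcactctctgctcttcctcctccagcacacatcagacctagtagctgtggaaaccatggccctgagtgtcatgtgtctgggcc

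Genes of IL-6, IL-1 and endotoxin signalling rose in 14 of 27 tested of 29 and fell in none (51.9% against 12.6% of all genes, median 0.67). Without 1F 9 were called higher, and 1 was lower without 8F and 2 with 2 RUVr factors. Tlr2, a receptor for bacterial lipoproteins, rose by 2.29 ± 0.37, Il1b by 2.53 ± 0.51, and Nfkbia, the inhibitor of NF-kB, by 0.89 ± 0.13. Il1b read 8.54, 4.7, 6.7 and 1.76 CPM in VSG and, over the 8 shams, from 0.281 through a median of 0.673 to 2.95 CPM. Cd14, the coreceptor for endotoxin, which was counted with the acute phase genes, rose by 3.73 ± 0.51. Stat3, which carries the IL-6 signal, had 0.09 ± 0.21 and its feedback inhibitor Socs3 1.281 ± 0.47, with edgeR adjusted p values of 0.772 and 0.0668 (Benjamini-Hochberg). Without 4F Socs3 had 1.84 (adjusted p = 0.00125), and without 18F 1.52 (adjusted p = 0.0372), so its call turned on those livers. Stat3 was below 0 without 8F, at -0.10 (adjusted p = 0.776), and it overlaps Stat5a on the opposite strand. Complement and coagulation genes rose in 7 of 27 (25.9%, median 0.25, but 0.16 without 8F), with 2 called without 1F and 4 without 3F, 6F, 9F, 16F, 8F or 11F or with the 8 shams as 1 group. Cfp, properdin, which stabilises the alternative pathway convertase but is not in that list, read 85.1, 47, 47.9 and 30.8 CPM in VSG and, over the 8 shams, from 8.15 through a median of 11.9 to 28.4 CPM. All 4 VSG livers lay above the shams, with a change of 2.02 ± 0.30 (SE, edgeR quasi-likelihood test, Benjamini-Hochberg adjusted p = 0.00185). Other secreted hepatocyte proteins had 4 of 24 higher (16.7%) and 1 lower (4.2%), near the 12.6% and below the 7.78% of all genes, with a median of 0.06 (0.02, 0.09, 0.11 and -0.05 without 4F, 9F, 1F and 11F in turn), or 2 higher without 11F and 2 lower without 8F or 18F, and by DESeq2 and limma-voom 3 lower each. Iron and zinc genes had 4 of 19 higher (21.1%) and 1 lower (2 lower without 8F or 18F), or with the 8 shams as 1 group 2 higher and by edgeR 0 lower (3 unadjusted; DESeq2 2 and limma-voom 1 with 2 sham groups), and the iron hormone gene Hamp had -0.32 ± 0.52, becoming -1.47 (adjusted p = 0.0286) without 8F and 0.04 (adjusted p = 0.949) without 18F. Interferon and MHC class I genes rose in 9 of 23 (39.1%, median 0.39), with 5 called without 1F and 5 without 11F. Cell cycle genes rose in 5 of 15 tested (33.3%, median 0.36, but 0.56, 0.12 and 0.20 without 4F, 1F and 8F in turn), with 0 higher without 1F (5 unadjusted) and 3 higher without 8F by edgeR, and in 2 of the 12 with at least 10 counts in every library. Top2a, which untangles DNA, rose by 2.31 ± 0.51 and Mki67, a proliferation marker, by 2.003 ± 0.54, but without 1F they had 1.82 (adjusted p = 0.0516) and 1.60 (adjusted p = 0.0996), and without 8F Mki67 had 1.60 (adjusted p = 0.071). Taking out 2 RUVs factors, edgeR called 0 of the signalling, complement, interferon and cell cycle lists, where 4, 1, 4 and 0 were higher unadjusted, and the cell cycle median turned to -0.30, with 4 lower unadjusted. Without such factors DESeq2 called 14, 7, 11 and 5 genes of these lists higher and limma-voom 14, 7, 7 and 4. Of the secreted protein list edgeR called 0 higher and 0 lower with 2 RUVs factors, and of the iron and zinc list 2 higher and 0 lower.

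Fatty acid synthesis genes fell in 18 of 20 after VSG against 7.78% of all genes, and none rose. The median log2 fold change was -1.34, -0.90 against Sham-Ad lib and -1.73 against Sham-WM. The sham groups themselves differed in 7 of the 20, against 6.99% of all genes. Acacb, the acetyl-CoA carboxylase at the mitochondrion whose product curbs fatty acid oxidation, read 98.9, 119, 110.03 and 70.9 CPM in Sham-Ad lib, 218, 275, 209 and 155 CPM in Sham-WM and 28.7, 36.1, 16.6 and 33 CPM in VSG. VSG livers lay below all shams, and Sham-WM livers above Sham-Ad lib. Its change was -2.35 ± 0.23 against both shams (edgeR quasi-likelihood test, Benjamini-Hochberg adjusted p = 0.00044), -1.80 against Sham-Ad lib and -2.90 against Sham-WM. Acly, which makes cytosolic acetyl-CoA from citrate, read 120.0, 153, 101 and 151 CPM in VSG and, over the 8 shams, from 254 through a median of 589 to 1392 CPM, with no overlap, and changed by -2.10 ± 0.17. Elovl6, a fatty acid elongase, changed by -2.14 ± 0.27, and Fasn, the synthase, by -1.19 against Sham-Ad lib and -2.81 against Sham-WM. Fads2, a desaturase of polyunsaturated fatty acids, read 189, 314, 162 and 398 CPM in VSG and, over the 8 shams, from 565 through a median of 803 to 1157 CPM. It changed by -1.60 ± 0.27, with 0.06 between the shams. Scd1, which makes oleate, and Srebf1, encoding SREBP-1, changed by -1.57 ± 0.32 and -0.63 ± 0.14. Pnpla3, a lipase of lipid droplets, changed by -2.60 ± 0.54, but by -0.41 against Sham-Ad lib and -4.78 against Sham-WM, so the average was carried by the restricted shams. Scd2 and Mlxipl, encoding ChREBP, were not called at 0.51 ± 0.24 and -0.11 ± 0.15, and without 11F Scd2 had 0.70 (adjusted p = 0.047), a rise by edgeR with Benjamini-Hochberg adjustment. Without 1F Scd2 had 0.26 (adjusted p = 0.482) by the same test. With 2 RUVs factors edgeR called 3 lower, 17 passing unadjusted at a median of -1.14. Elovl6, Srebf1 and Acaca overlap less abundant genes on the opposite strand.

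Promoters of the lipogenic genes are shown for the motifs of SREBP and its partner NF-Y. Again every list member with a promoter was counted, whether or not it was called. CCAAT, the NF-Y motif, was in 9 of 16 lipogenesis promoters (56.2%), 15 of 16 cholesterol promoters (93.8%), 7 of 13 neutrophil promoters (53.8%) and 37.9% of all promoters. TCACNCCAC, a sterol response motif, was in 1 of 16 and 1 of 16 (6.25% each) against 1.22%, and in 2 of 26 acute phase promoters (7.69%). Genes that fell held CCAAT in 37.7% and genes that rose in 35.2%. Acacb (chr5:114165268-114165567, plus strand), Acly (chr11:100527951-100528250, minus strand) and Fasn (chr11:120824498-120824797, minus strand) of RefSeq GRCm38.p6 are printed with CCAAT, or ATTGG on the other strand, in capitals. Elovl6 and Me1 hold neither motif in this window.
Acacb: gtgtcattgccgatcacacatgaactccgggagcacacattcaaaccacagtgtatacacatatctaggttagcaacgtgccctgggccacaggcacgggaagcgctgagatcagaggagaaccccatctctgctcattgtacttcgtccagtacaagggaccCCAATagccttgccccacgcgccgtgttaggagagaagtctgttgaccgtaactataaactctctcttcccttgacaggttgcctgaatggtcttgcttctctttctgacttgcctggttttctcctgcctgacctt
Acly: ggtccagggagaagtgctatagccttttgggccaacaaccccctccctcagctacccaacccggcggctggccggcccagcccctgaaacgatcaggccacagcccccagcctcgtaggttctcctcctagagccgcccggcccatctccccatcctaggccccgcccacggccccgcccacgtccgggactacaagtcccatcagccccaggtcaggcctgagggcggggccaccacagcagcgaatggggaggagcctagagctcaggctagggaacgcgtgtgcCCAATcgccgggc
Fasn: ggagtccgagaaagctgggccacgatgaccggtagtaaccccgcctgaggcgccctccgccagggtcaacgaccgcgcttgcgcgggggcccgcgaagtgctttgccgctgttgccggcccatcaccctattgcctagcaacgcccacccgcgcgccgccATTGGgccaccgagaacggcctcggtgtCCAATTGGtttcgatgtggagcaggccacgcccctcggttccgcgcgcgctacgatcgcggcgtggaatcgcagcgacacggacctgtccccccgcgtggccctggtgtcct

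Cholesterol synthesis and uptake genes fell in 15 of 24 (62.5% against 7.78% of all genes) and rose in none, and all 24 had a negative change, as had 6160 of the 13054 genes tested. Their medians were -1.11 against both shams, -1.10 against Sham-Ad lib and -1.06 against Sham-WM. Between the shams 0 were called by edgeR, DESeq2 and limma-voom and 3 passed unadjusted in each, with a median of -0.09. By edgeR 6.99% of all genes differed there. Hsd17b7, a ketoreductase of sterol synthesis, read 134, 62.5, 54.7 and 69.3 CPM in Sham-Ad lib, 75.9, 91.2, 73.4 and 86.1 CPM in Sham-WM and 30.4, 28.1, 21.8 and 29.1 CPM in VSG. All VSG livers were below all shams, and the sham groups overlapped. Its change was -1.56 ± 0.22 (SE, edgeR quasi-likelihood test, Benjamini-Hochberg adjusted p = 0.00151). Sc5d, which acts late in sterol synthesis, read 321, 400.0, 348 and 368 CPM in VSG and, over the 8 shams, from 523 through a median of 681 to 942 CPM and changed by -1.01 ± 0.15. It did not overlap between VSG and sham livers either. Lss, which closes the sterol rings, and Pmvk, a kinase of the mevalonate pathway, fell with -1.52 ± 0.25 and -1.67 ± 0.29. Sqle, squalene epoxidase, had -0.83 ± 0.61 and Srebf2, encoding SREBP-2, -0.47 ± 0.18, with adjusted p values by edgeR (Benjamini-Hochberg) of 0.339 and 0.071. Single livers moved Sqle, which had -1.48 without 1F, -0.49 without 3F and -0.48 without 9F, and was not called in any of these fits. Srebf2 had -0.54 (adjusted p = 0.0498) without 6F and -0.295 (adjusted p = 0.14) without 11F, by the same test. Without 11F 7 genes of the list were called, and with 2 RUVs factors edgeR called 0, 14 passing unadjusted at a median of -1.22.

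**Figure D3:**
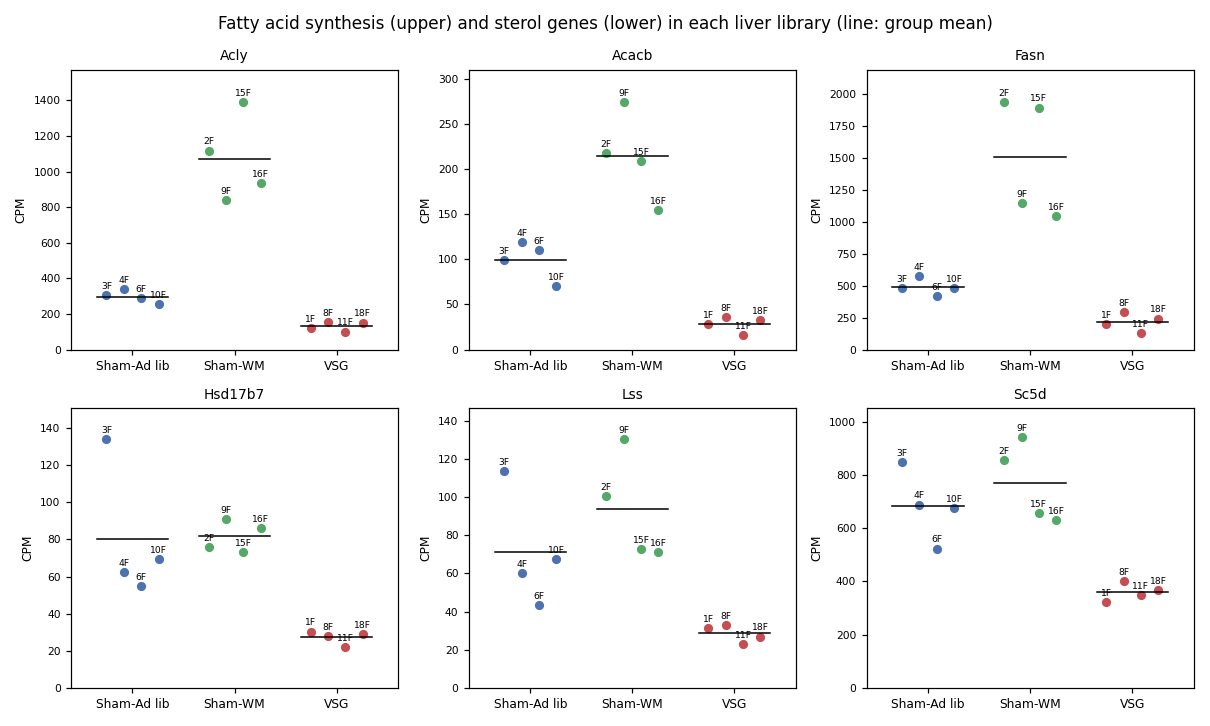
CPM of Acly, Acacb, Fasn, Hsd17b7, Lss and Sc5d in every library, points labelled by animal and lines at group means. VSG values lie below all sham values for all 6 genes, and the sham groups overlap for the sterol genes but not for the lipogenic genes.

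Smaller shares of the other metabolic lists fell. Fatty acid oxidation and ketogenesis genes fell in 8 of 25 (32.0% against 7.78% of all genes, median -0.20), with 2 called when 1F was left out, 3 when 3F, 6F, 15F or 11F was, 4 when 9F was and 5 when 16F was or with the 8 shams as 1 group. Cpt1a, which admits fatty acids to mitochondria, had -0.28 ± 0.15, with an edgeR adjusted p of 0.2 (Benjamini-Hochberg). By the same test it had -0.18 (adjusted p = 0.465) without 1F and -0.45 (adjusted p = 0.053) without 8F. Acsl1, which activates fatty acids and is outside the list, fell with -0.87 ± 0.23 and had -0.72 (adjusted p = 0.0679) without 1F. Lipid droplet genes had 5 of 20 lower (25.0%) and 1 higher (median -0.45), with 2 lower without 1F and 8 without 11F, and 0 higher without 18F (1 unadjusted) by edgeR. The droplet median was -0.64 against Sham-Ad lib and -0.14 against Sham-WM, and 3 genes were lower against each sham group unadjusted. Between the shams 6 of the 20 differed, against 6.99% of all genes. Plin2, which coats droplets, fell with -0.63 ± 0.16, or -0.56 (adjusted p = 0.0707) without 1F, and Pnpla2, the triglyceride lipase, rose with 0.41 ± 0.11, or 0.32 (adjusted p = 0.0632) without 18F. Glucose output and glycogen genes fell in 4 of 15 (26.7%, median -0.17, but -0.11 without 1F). Taking out 2 RUVs factors, edgeR called 0 lower of the oxidation and droplet lists, where 2 and 7 passed unadjusted, and 1 of the glucose list, whose median turned to 0.12. Without such factors DESeq2 called 9, 8 and 4 genes of these lists lower and limma-voom 8, 6 and 4. G6pc, the last step of glucose release, fell with -2.12 ± 0.44, with -1.06 against Sham-Ad lib and -3.18 against Sham-WM. Pck1 of gluconeogenesis had 0.06 ± 0.45, with an edgeR adjusted p of 0.938 (Benjamini-Hochberg), and its sign turned without 10F, 9F, 1F or 18F, at -0.09 (adjusted p = 0.894), -0.10 (adjusted p = 0.867), -0.04 (adjusted p = 0.963) and -0.32 (adjusted p = 0.648). Insulin and glucagon signalling had 1 of 18 lower (5.6%), Irs1, the insulin receptor substrate, at -1.32 ± 0.36, or -1.21 (adjusted p = 0.0759) without 1F, and the list had by edgeR 0 lower without 1F (3 unadjusted), 2 lower without 10F or 9F and 5 lower without 18F and 1 higher without 4F, and by DESeq2 3 lower. Bile acid genes had 1 of 21 higher and 1 lower, Cyp8b1, which makes cholic acid, at -1.40 ± 0.39, or -1.20 (adjusted p = 0.0852) without 1F and -1.25 (adjusted p = 0.0513) without 8F. By edgeR the list had 0 higher without 3F, 4F, 6F, 9F, 15F, 16F, 1F or 11F (1 to 2 unadjusted), and 0 lower without 1F or 8F (1 to 2 unadjusted), 2 lower without 4F or 10F and 3 lower without 18F. Amino acid and urea cycle genes fell in 2 of 25, or by edgeR 0 lower without 1F or 11F (3 to 7 unadjusted) and 1 lower without 6F, 9F, 15F or 16F, and 1 higher without 18F and 2 higher without 4F. The list of cytochromes P450 of families 1 to 3, which also holds the reductase Por and the regulators Nr1i2, Nr1i3 and Ahr, had 1 of 26 lower, or by edgeR 0 lower without 6F, 2F, 16F, 1F, 8F or 11F (4 to 7 unadjusted), 2 lower without 9F and 4 lower without 4F, 10F or 18F. Conjugation enzymes had 2 of 24 higher, or by edgeR 0 higher without 11F (1 unadjusted) and 1 higher without 4F, 6F, 10F, 2F, 9F, 15F, 16F or 18F, and 2 lower, or 1 lower without 1F and 6 lower without 18F. Growth hormone axis genes had 1 of 20 higher, or by edgeR 0 higher without 11F (1 unadjusted) and 2 higher without 8F, and 1 lower, or 2 lower without 4F or 18F. NRF2 targets had 1 of 12 higher, and 2 lower without 10F, and pericentral Wnt targets 1 of 14 higher. The shares that rose in the growth hormone (5.0%), NRF2 (8.3%) and Wnt lists (7.1%) were below the 12.6% of all genes. By edgeR 0 of the Wnt targets were higher with the 8 shams as 1 group (1 unadjusted), and 0 of the NRF2 and Wnt lists with 2 RUVs factors (1 and 2 unadjusted), while without them DESeq2 and limma-voom called 1 of each higher and DESeq2 2 of the NRF2 list lower. Endoplasmic reticulum folding and stress genes had 4 of 27 lower (14.8% against 7.78%), with 2 lower without 11F or with the 8 shams as 1 group, and 1 higher, or by edgeR 0 higher without 1F (2 unadjusted), 2 higher without 10F or 2F and 4 higher without 18F. Hspa5, the main chaperone there, fell with -0.61 ± 0.17, or -0.51 (adjusted p = 0.0582) without 11F. By edgeR the shares that fell in the amino acid (8.0%), bile acid (4.8%), P450 (3.8%) and conjugation lists (8.3%) were near or below the 7.78% of all genes, while DESeq2 called 4, 2, 4 and 6 of these lists lower and 1502 of all genes. With 2 RUVr factors edgeR called 4, 5, 7 and 8 of them lower and 2200 of all genes. With 2 RUVs factors it called 0 of each list lower and 17 of all genes.

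**Figure D4:**
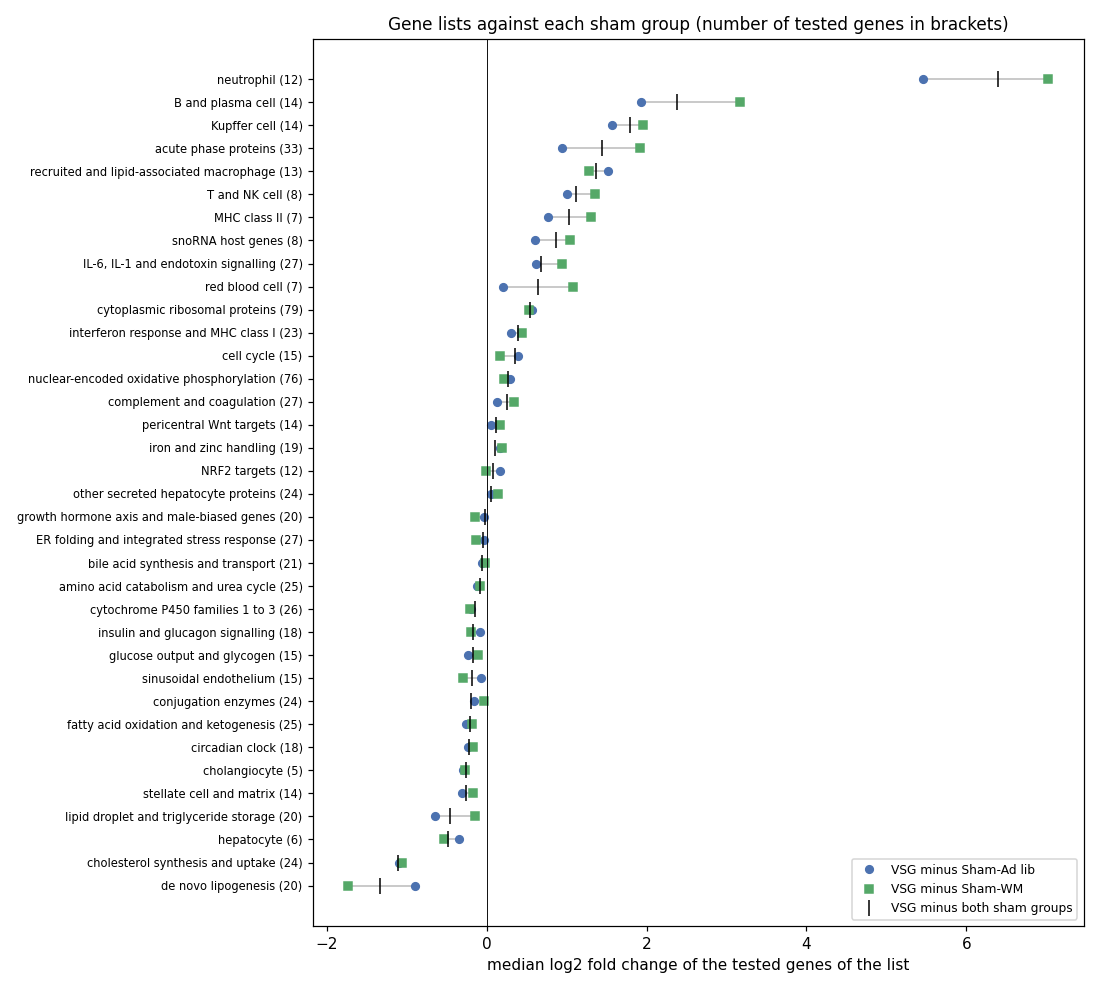
Median log2 fold change of each gene list against both shams, against Sham-Ad lib and against Sham-WM, with the number of genes tested. The neutrophil median is 6.40 and the cholesterol medians lie near -1.1 against either sham.

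Cytoplasmic ribosomal protein genes rose in 56 of 79 tested of 82 (70.9% against 12.6% of all genes) and fell in none, and 78 of 79 had a positive change, as had 52.8% of all genes. Medians were similar against either sham, being 0.54 against both shams, 0.56 against Sham-Ad lib and 0.53 against Sham-WM. Between the shams edgeR, DESeq2 and limma-voom called 0, with 0 unadjusted, where by edgeR 6.99% of all genes differed. Rpl22 of the large subunit read 94.5, 95.1, 90.7 and 109.4 CPM in Sham-Ad lib, 93.3, 92, 81.7 and 82 CPM in Sham-WM and 157, 115.2, 170.3 and 117 CPM in VSG. VSG and sham livers did not overlap, with 1F and 11F highest. Its change was 0.60 ± 0.11 (SE, edgeR quasi-likelihood test, Benjamini-Hochberg adjusted p = 0.00453). Rps27 of the small subunit read 253, 177, 359 and 175 CPM in VSG and, over the 8 shams, from 123 through a median of 133 to 162 CPM, again without overlap, and changed by 0.83 ± 0.17. Rpl13a changed by 0.84 ± 0.19, and by 0.55 (adjusted p = 0.0324) without 11F. The median was 0.32 without 11F, and the count was sensitive to single livers, falling to 5 if 1F was left out, 7 if 11F was, 29 if 16F was and 28 if 3F, 6F or 15F was. With 2 RUVs factors edgeR called 0 and 5 were higher unadjusted, with a median of 0.09. Genes that host small nucleolar RNAs, which guide ribosomal RNA modification, rose in 6 of 8 tested (75.0%, median 0.87), or 1 with 2 RUVs factors. Gas5 and Zfas1, of that list, rose by 0.84 ± 0.15 and 1.56 ± 0.18, and overlap Zbtb37 and Znfx1 on the opposite strand. Nuclear genes of oxidative phosphorylation had 1 of 76 higher and 1 lower (1.3% each, against 12.6% and 7.78% of all genes). Their median was 0.26, but -0.02 without 11F, and DESeq2 called 3 higher and 3 lower. By edgeR 3 were higher without 18F and 17 without 8F. None was lower without 3F, 6F, 9F, 1F, 8F or 11F (1 to 3 unadjusted), and 2 were lower without 18F. With 2 RUVr factors edgeR called 31 of the list higher and 2 lower, where 2598 of all genes were higher. With 2 RUVs factors it called 0 higher and 0 lower. All 37 mitochondrial genes had 0 counts in every library.

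Clock genes set the Sham-WM livers apart from the other groups. Of 18 tested, 4 rose (22.2% against 12.6% of all genes) and 6 fell (33.3% against 7.78%) against the mean of both shams (3 without 1F), while 11 differed between the shams, where 6.99% of all genes did. With the 8 shams as 1 group edgeR called 0 higher (0 unadjusted) and 1 lower (7 unadjusted). With 2 RUVs factors 1 rose and 0 fell by edgeR, 5 and 4 passing unadjusted, and without them DESeq2 called 5 higher and 7 lower and limma-voom 4 and 7. Arntl, the activating subunit BMAL1, read 0.558, 1.61, 0.703 and 0.941 CPM in Sham-Ad lib, 11.8, 29.7, 25.9 and 31.1 CPM in Sham-WM and 1.02, 1.02, 0.452 and 1.14 CPM in VSG. VSG values overlapped those of Sham-Ad lib and lay apart from Sham-WM. Its change was -2.38 against both, -0.05 against Sham-Ad lib and -4.72 against Sham-WM. Dbp, a clock output factor, had 1.505, -0.17 and 3.18 in the same order, the repressor Cry1 -1.504, 0.02 and -3.03, and the repressor Nr1d1 1.26, -0.45 and 2.98. Ciart, another repressor, had 1.20, -0.22 and 2.63. In these 5 genes the averaged change was carried by the food-restricted shams, and none was called against each sham group. Dbp and Nr1d1 overlap Sphk2 and Thra on the opposite strand.

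**Figure D5:**
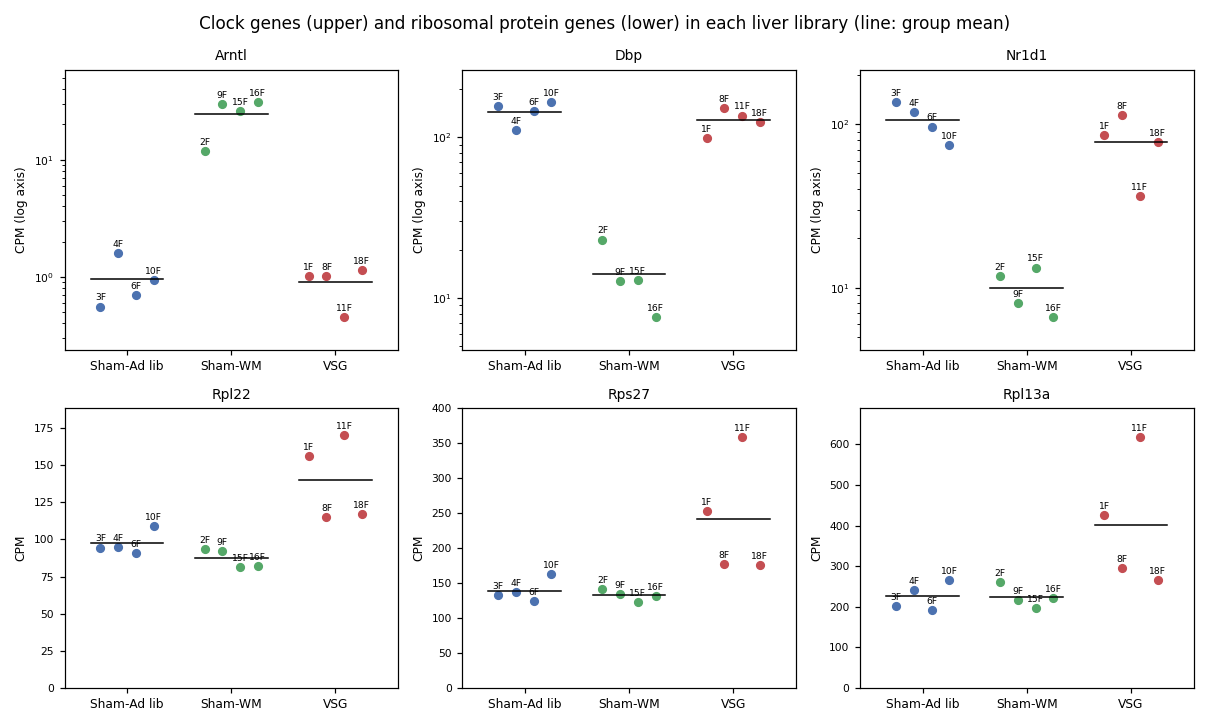
CPM of Arntl, Dbp and Nr1d1 and of Rpl22, Rps27 and Rpl13a in every library, points labelled by animal and lines at group means. For the clock genes Sham-WM stands apart from the other groups, and for the ribosomal genes both sham means lie below the VSG mean.

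Further genes were named by size of change, p-value, abundance or likeness between the shams. Of these Hsd17b7, Fads2 and Mup20 are in the lists and the others are not. Separation of VSG from sham livers was not asked of all of them, and Mup20 values overlapped. Slc17a8, a vesicular glutamate transporter, read 52.1, 12.4, 30.4 and 25.8 CPM in Sham-Ad lib, 42.4, 67.5, 44.5 and 38.1 CPM in Sham-WM and 5.8, 7.25, 8.66 and 7.79 CPM in VSG. All VSG livers were lowest, with -2.37 ± 0.32 (SE, edgeR quasi-likelihood test, Benjamini-Hochberg adjusted p = 0.00146). Chrna4, a nicotinic receptor subunit, changed by -3.58 ± 0.29, Polr3g, a subunit of RNA polymerase III, by -1.15 ± 0.14, and Cyb5b, a cytochrome b5 of mitochondria, by -0.95 ± 0.13. Of those higher, Spi1, the transcription factor PU.1 of myeloid cells, read 30.6, 17.6, 14.5 and 9.5 CPM in VSG and, over the 8 shams, from 1.86 through a median of 3.57 to 9.07 CPM and changed by 2.18 ± 0.36. Itgb2, a leukocyte integrin, Fcgr4, an antibody receptor, and Pla2g7, which degrades platelet-activating factor, rose by 2.03 ± 0.34, 2.12 ± 0.35 and 2.21 ± 0.36, and Isyna1, of inositol synthesis, by 2.01 ± 0.38. Rhog, a small GTPase, read 28.2, 25, 23.4 and 22.2 CPM in VSG and, over the 8 shams, from 11.6 through a median of 13.2 to 18.8 CPM and changed by 0.84 ± 0.11. Genes called with nearly no difference between the shams were Arhgef2, Ptgs1, Cd84, Dmpk and Adam11 among those higher, from 1.13 to 1.61, and Impg2, Hsd17b7, Epha2, Fads2 and Acss3 among those lower, from -1.69 to -1.04. Without 1F, Ptgs1 had 0.88 (adjusted p = 0.0602), Epha2 -0.995 (adjusted p = 0.0519) and Acss3 -1.53 (adjusted p = 0.0859), and without 8F and 11F Acss3 had -1.56 (adjusted p = 0.0556) and -1.56 (adjusted p = 0.0679). Mup20, a male urinary protein, rose by 1.30 ± 0.34, but had 0.61 (adjusted p = 0.0995) without 11F, and Mup genes are near copies. Ugt1a5 fell with -1.96 ± 0.37, and shares its exons with other Ugt1a genes, so its value is uncertain, as is that of Mup20.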

How the data were processed

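Livers of 12 mice were sequenced as poly(A) libraries. The authors aligned paired reads to mm10 with TopHat2 2.1.1, counted them on genes with featureCounts and deposited raw counts per gene; the annotation release and strand setting are not given in the sources used here. Of 46078 gene IDs, 45229 matched GENCODE M21 symbols. Genes were kept by filterByExpr (minimum count 10, minimum total 15) and scaled by trimmed means of M values. A single quasi-likelihood model of all 12 libraries in edgeR 4.0.16 (R 4.3.3) gave each contrast, with Benjamini-Hochberg adjusted p under 0.05 as the call. Calls against each sham group used the larger of both p-values where both signs matched. DESeq2 1.42.0, limma-voom (limma 3.58.1), other scalings and filters, grouping by the description field and leaving out each library were alternatives. So were RUVs and RUVr factors (2 each), computed from all tested genes without the RUVSeq package. The steps were tested on simulated counts with a common spread for all genes and no outlying libraries or batch. That test does not cover calls that turned on single libraries. Totals of 15122520 to 19384076 counts limit genes of few reads, and the floor for 0 was 3 counts per library.

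Named genes were the 10 higher and 10 lower called genes of largest change whose VSG and sham values did not overlap and whose mean log2 CPM reached 2, the 5 and 5 of smallest larger p among these, the 5 and 5 called genes past 2-fold with the least difference between shams, the 5 and 5 most abundant called genes, and members of the lists. Predicted genes and antibody variable segments were left out of the first 2 of these. Members and lists were chosen with earlier results of these data known. A few genes are not reported here. The first-listed RefSeq promoter of each gene was searched.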

Additional observations from a re-analysis of the deposited data

Results flagged for a closer look

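Within each group of 4 livers, the gap from the highest or lowest liver to its nearest neighbour was divided by the whole range of the group. Both were taken on log2 CPM rather than on CPM. Values above Dixon's critical value for 4 livers mark a liver far from the others. Of 456 groups tested over the genes followed singly and marker sums, 26 had such a liver, where chance alone marks about 1 in 20 groups, or 22.8. Sham-Ad lib 4F was the highest of its group for Camp (1.0), Cd74 (0.966), Marco (0.932), Cd84 (0.908), Chil3 (0.901), Cd52 (0.886), Mpo (0.856), Fcgr4 (0.845) and the summed markers of recruited macrophages (0.858) and stellate cells (0.855), and the lowest for Acsl1 (0.924). Most of these are leukocyte genes that rose after VSG. In the VSG group 18F was highest for Acss3 (0.958) and Alb (0.862) and lowest for Ppbp (0.878), Hpx (0.877) and Mt1 (0.841). VSG 1F was lowest for Impg2 (0.958) and highest for Cd84 (0.931), and 11F lowest for Srebf2 (0.898) and Arntl (0.871). Among Sham-WM livers 2F was highest for Ltf (1.0), Mpo (1.0) and Mup20 (0.874), 9F for Pnpla2 (0.92) and Chrna4 (0.831), and 15F for Pcna (0.885). A value of 1.0 means that the other livers of the group had equal values, here 0 or close to it for Camp, Ltf and Mpo.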

How the results depend on the processing

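With the description field grouping, which keeps 1F and 18F in VSG, 10F in Sham-Ad lib and 9F in Sham-WM and moves the other animals to another group, edgeR called 0 genes in the averaged contrast (199 unadjusted), 0 against each sham (29 unadjusted) and 0 between shams (715 unadjusted), and 17 genes lay outside all shams. DESeq2 and limma-voom were not run on that grouping. Over all 12 libraries DESeq2 and limma-voom called 3323 and 2561 genes in the averaged contrast. With 2 RUVs factors 42, 6 and 1723 genes were called in these 3 comparisons, and with 2 RUVr factors 4798, 1954 and 2132. Calls against each sham were 662 by DESeq2, 2 by limma-voom, 5 with DESeq2 size factors, 355 with no filter, and by edgeR 0 with upper quartile factors (2174 unadjusted) and 0 with at least 10 counts in every library (1851 unadjusted). Counts against each single sham group were followed after seeing the data. Against Sham-Ad lib 1202 genes were called by DESeq2, 2 by limma-voom, 628 with no filter, 6 with RUVs, 2955 with RUVr, 1453 without 4F and 18F, and by edgeR 0 with at least 10 counts in every library (2755 unadjusted) and 0 with the description grouping (465 unadjusted). Against Sham-WM 518 were called with RUVs, 5483 with RUVr and by edgeR 0 with the description grouping (158 unadjusted). DESeq2 called 1445 genes between the shams. Without 4F and 18F, chosen after seeing the data, 843 genes were called against each sham and 2225 lay outside all shams. Leaving out each library in turn gave 1101 to 3261 genes in the averaged contrast, 0 to 547 against each sham, 0 to 1089 against Sham-Ad lib, 2196 to 3868 against Sham-WM, 424 to 1311 between shams and 702 to 1618 outside all shams. The cause of these shifts was not tested. Of 138 genes followed singly, direction and call held for 136 with DESeq2, 130 with limma-voom, 137 with DESeq2 size factors, 138 with upper quartile factors, 133 with RUVr and 121 with the 8 shams as 1 group, but for only 30 with RUVs, where 99 lost their call and 9 changed sign, and 11 with the description grouping, where 110 and 17 did. Signs turned with the description grouping for Aacs (0.15), Cd4 (0.13), Fads2 (0.031), Fga (-0.000473), Gpam (0.036), Hpx (-0.12), Hsd17b7 (0.15), Hspa5 (0.016), Lss (0.12), Ms4a1 (-0.50), Mup20 (-0.23), Pmvk (0.17), Saa3 (-0.36), Socs3 (-0.67), Sqle (0.65), Srebf2 (0.034) and Stat3 (-0.23). They turned with RUVs for Cd4 (0.058), Cyp7a1 (0.22), Hpx (-0.037), Saa1 (-0.66), Saa2 (-0.998), Scd2 (-0.086), Socs3 (-0.16), Stat3 (-0.25) and Trem2 (-0.030), with limma-voom for Cd4 (0.047) and Col1a1 (-0.15), with RUVr for Col1a1 (-0.16), and without 4F and 18F for Col1a1 (-0.31), Hamp (0.10) and Pck1 (-0.20). Single libraries moved Cd4 from -0.28 to 0.12, Col1a1 from -0.51 to 0.44, Hamp from -1.47 to 0.041, Mlxipl from -0.29 to 0.014, Pck1 from -0.32 to 0.27 and Stat3 from -0.10 to 0.24. The cause was not tested. No paired analysis was possible because the animals carry different numbers in each group. Depth limits genes of few reads, such as Ly6g and Mmp8.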
